A study of Homo sapiens with 6 samples.

Results

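The genes described here encode the enzymes that place or remove methyl groups on histone lysines and on protein arginines, together with the related PRDM family. Members were chosen by symbol from the protein-coding genes of GENCODE release 29. They carry the stems KMT, KDM, SETD, NSD, PRDM, SUV39H, EHMT or PRMT, or are SETMAR, SETDB1, SETDB2, DOT1L, ASH1L, SMYD2, SMYD3 or CARM1. The Y-linked genes were left out. This gave 74 of the 58721 genes in the count table, namely 40 writers, 19 erasers and 15 PRDM genes. The cells were A549, a widely used line from a human lung adenocarcinoma. By their labels, 3 libraries came from cells that overexpressed KAT8 carrying the R98W substitution (R98W), and the other 3 from cells that overexpressed wild-type KAT8 (WT). The KAT8 level of the library labelled WT replicate 1 goes against that label, as given below, and no control labelled as lacking added KAT8 was analysed here. The sources used here do not give the promoter, the vector or the clonal origin of the overexpressing cells, nor whether replicates were separate cultures. P-values therefore reflect library-to-library spread alone, and that spread may be technical.

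KAT8 (MOF) is the H4 acetyltransferase of the MSL and NSL complexes, and the study asks about its Tudor-knot domain. Lysine methyltransferases use S-adenosylmethionine as the methyl donor, most of them through a SET domain, whereas DOT1L has another fold. Methylation of H3K4 and H3K36 marks active promoters and transcribed gene bodies, while methylation of H3K9, H3K27 and H4K20 is known from silenced or compacted chromatin. Demethylases are either flavin-dependent amine oxidases (KDM1A and KDM1B) or JmjC dioxygenases that consume 2-oxoglutarate. Protein arginine methyltransferases (PRMTs) act on histones and on many RNA-binding proteins. Most PRDM proteins carry a domain related to SET beside zinc fingers and act as transcription factors.

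Library totals ran from 90007121 to 110152936 counts, and 1 library stood apart. KAT8 was at 166, 196 and 236 CPM (counts scaled to library size) in R98W replicates 1 to 3, against 12.2, 195 and 184 CPM in the libraries labelled WT replicates 1 to 3. The library labelled WT replicate 1 thus held 6.43% of what WT replicates 2 and 3 averaged. KAT8 was not called, at a log2 fold change of 0.61 (SE 0.48, adjusted p = 0.362 by edgeR), or 0.06 without that library (edgeR adjusted p = 0.687). Its label as a wild-type overexpression library is therefore in doubt, and whether its cells carried added KAT8 was not tested. If they did not, an R98W over WT value sets R98W against libraries of both kinds, and every direction below is drawn with that limit. The library labelled WT replicate 1 is kept under its label, and the values without it are given beside each member call it ends or adds. The epithelial keratin genes KRT8 and KRT18 were at 2713 CPM or more in every library. EPCAM was low, at 3.30 to 4.71 CPM in R98W and 6.12 to 8.29 CPM in WT. CDKN2A, which is deleted in A549, had 0 counts, and the leukocyte gene PTPRC stayed at or under 0.0611 CPM. Among the fibroblast genes COL1A1 was at 10.0 to 14.2 CPM, PDGFRB was at or under 0.134 CPM, and THY1 was at 0.2996 to 0.407 CPM in R98W and 1.62 to 2.36 CPM in WT. The part of these markers in the results was not tested.

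Methylation enzyme genes moved little between R98W and WT, and in both directions. Of the 74 members 66 had enough counts to be tested, and a member is called when its edgeR adjusted p is under 0.05. In R98W 8 members were called higher and 10 lower, together 27.3% of the tested members, against 34.8% of all 20713 tested genes and 43.3% of the 14427 that are protein-coding, as all members are. Over all tested genes 16.2% were called higher and 18.5% lower. The median log2 fold change of R98W over WT was -0.02 over the tested members and -0.0047 over all tested genes. The median size of the log2 change was 0.16 over members and 0.26 over all. A change of at least 2-fold was called in 1 member, KDM4D, against 5.6% of all tested genes. The other called members differed by 1.12-fold to 1.41-fold. No overlap between groups was seen in 33 of the 66 members (50%), against 45.6% of all tested genes and 53.8% of those that are protein-coding. In bulk libraries, a lower level of a transcript per cell and fewer cells that carry it cannot be told apart.

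Calls were common among abundant genes over the whole table, and most tested members averaged over 16 CPM. Over 64 CPM, 7 of 21 members were called, against 49.8% of all tested genes at that level. Between 16 and 64 CPM, 7 of 25 members were called, against 46.2% of all tested genes. Between 1 and 16 CPM, 3 of 16 members were called, against 40.4% of all tested genes. The 4 members under 1 CPM included 1 called gene, again KDM4D, against 13.2% of all tested genes at that level. The split of the calls moved with the scaling. After a correction for exon length 16 members were higher and 7 lower, after one for GC content 14 and 7, after one for expression level 7 and 14, and with upper-quartile scaling 8 and 14. The median of the members was positive after the corrections for exon length and GC content, at 0.025 and 0.023. Without the library labelled WT replicate 1, 12 members were higher and 8 lower. The number called higher fell to 3 without R98W replicate 2 and to 3 without WT replicate 3, and the number called lower fell to 6 without R98W replicate 1. Counts over all genes moved as well. Genes called higher numbered 3364 with all libraries, 2602 without R98W replicate 2, 2340 without WT replicate 3 and 3953 after the correction for exon length. Genes called lower numbered 3839 with all libraries and 3299 without R98W replicate 1.

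**Figure D1:**
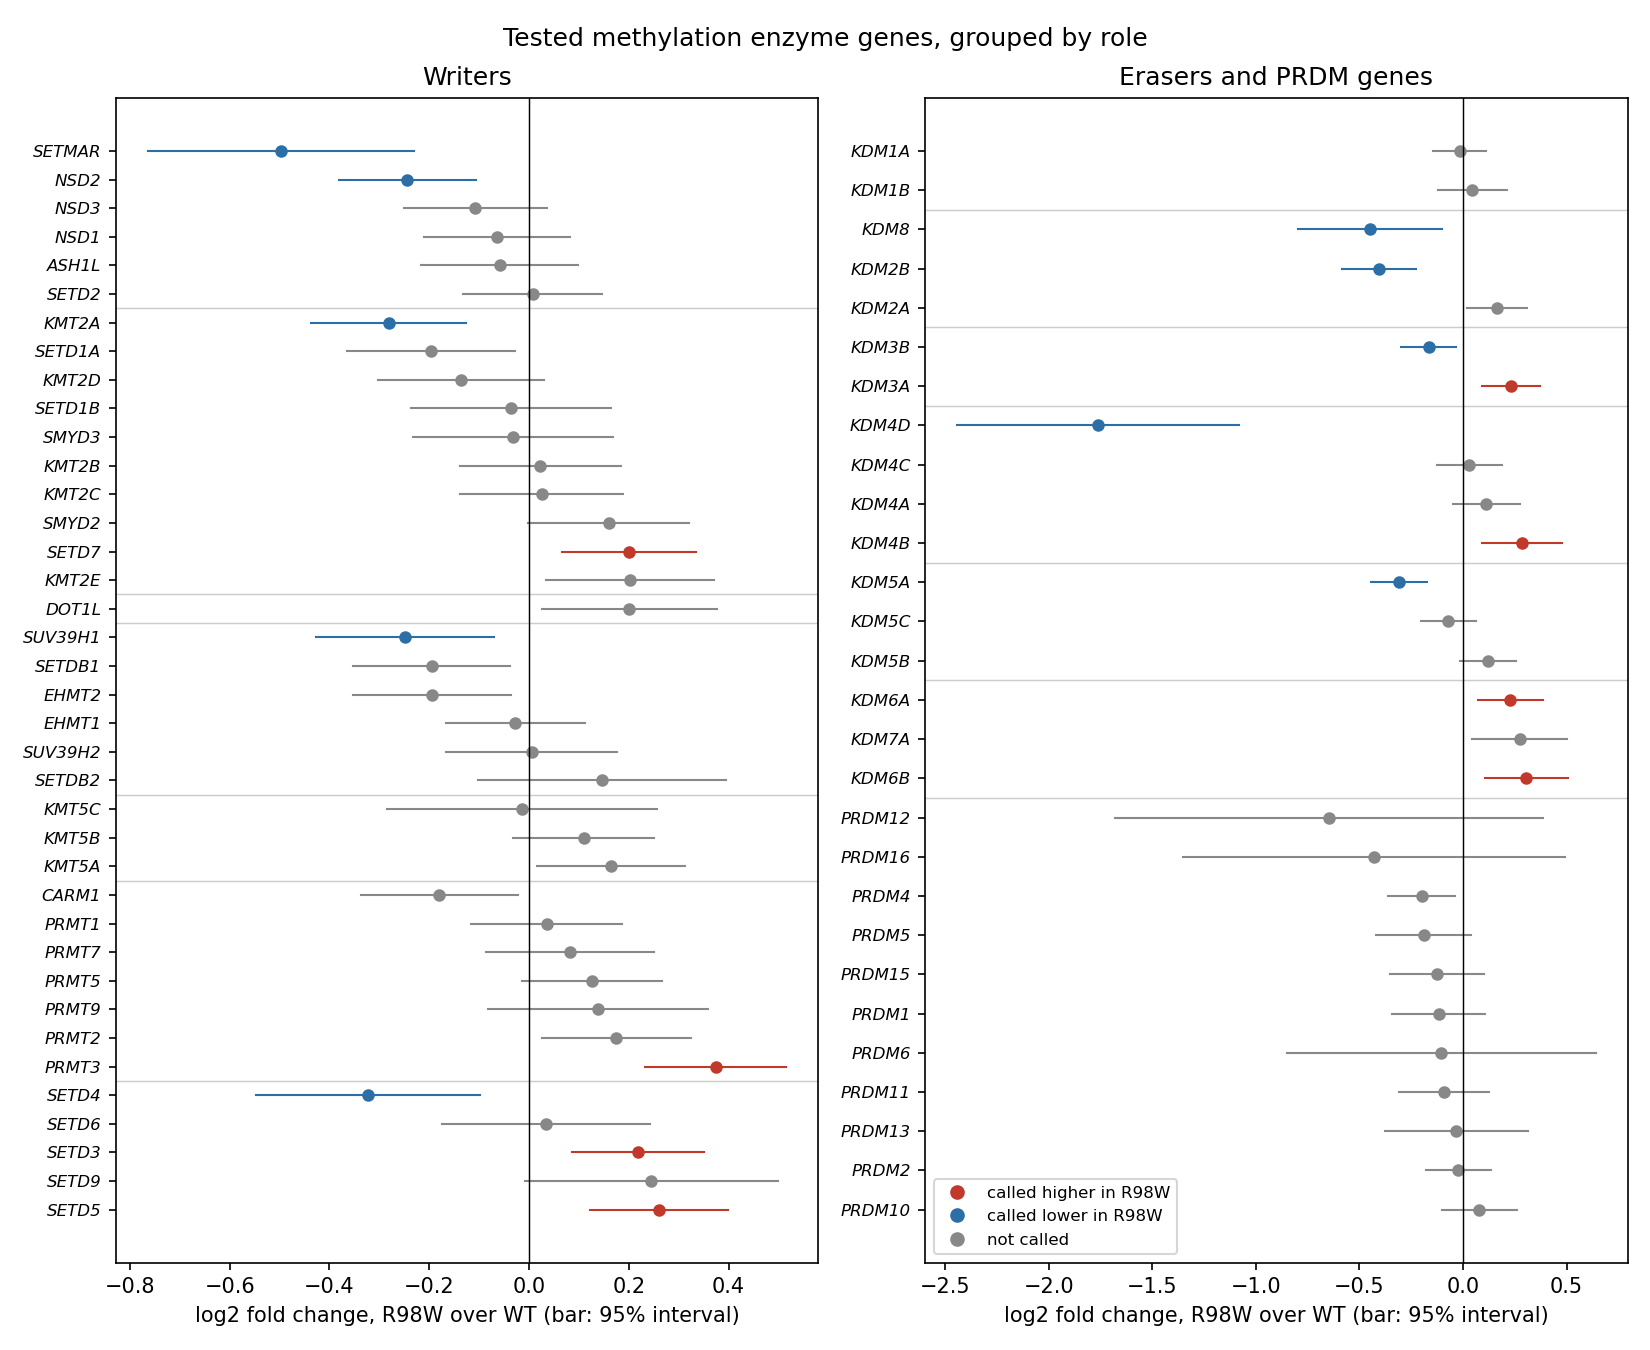
The horizontal axis gives the log2 fold change of R98W over WT for each of the 66 tested members, as a point with its 95% interval, in 2 panels with different scales, and the grey lines part the roles. Of the members 8 were called higher (red) and 10 lower (blue), and KDM4D at -1.76 lies apart from the rest.

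**Figure D2:**
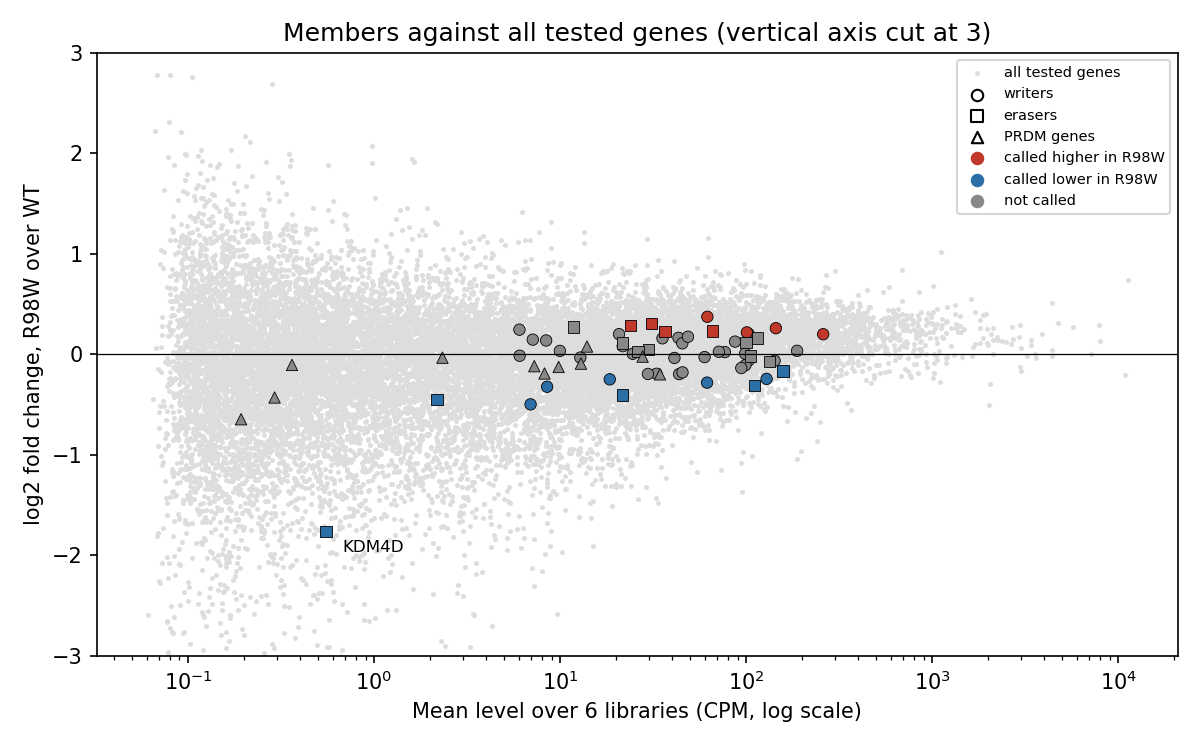
The horizontal axis gives the mean level over the 6 libraries in CPM on a log scale, and the vertical axis the log2 fold change of R98W over WT, cut at 3 in both directions. Members are drawn over all 20713 tested genes in light grey, and all but KDM4D and the weakly expressed PRDM12 lie between -0.5 and 0.5.

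Levels per length, as CPM divided by exon length in kilobases (RPKM), placed arginine methyltransferases at the top. PRMT1, the main source of asymmetric dimethylarginine, had a mean of 39.6 RPKM in R98W and 38.7 RPKM in WT. PRMT5, which makes symmetric dimethylarginine, followed with 26.3 RPKM in R98W and 24.0 RPKM in WT. The most abundant erasers per length were KDM3B, at 18.7 RPKM in R98W and 21.0 RPKM in WT, and KDM1A, at 19.3 RPKM in R98W and 19.6 RPKM in WT. SETD3 and SETD7 lay close by, with means over all libraries of 19.5 and 18.7 RPKM. At the other end, the tested members with the lowest mean over all libraries were PRDM16, PRDM6 and PRDM12, at 0.0299, 0.0388 and 0.0779 RPKM, and KDM4D, at 0.186 RPKM.

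The 10 genes tested among enzymes linked to H3K4 included 1 called lower and 1 called higher. KMT2A (MLL1), the founding H3K4 methyltransferase of the trithorax type (ENSG00000118058, hg38 chromosome 11, 118436464 to 118526832), was at 53.5, 62.0 and 51.5 CPM in R98W replicates 1 to 3. WT replicates 1 to 3 held 69.3, 68.9 and 64.8 CPM. Each R98W library was below each WT library, and the log2 fold change was -0.28 (SE 0.07, adjusted p = 0.00601 by edgeR). SETD7, a monomethyltransferase of H3K4 and of many other proteins, held 284, 281 and 268 CPM in R98W replicates 1 to 3, against 255, 230 and 240 CPM in WT replicates 1 to 3. The groups did not overlap, and SETD7 rose by a log2 fold change of 0.20 (SE 0.06, adjusted p = 0.0209 by edgeR). That call did not hold without R98W replicate 1 or 2 or WT replicate 2 or 3 (edgeR adjusted p of 0.0837, 0.0797, 0.062 and 0.0839), nor after the correction for expression level (0.65, with a log2 fold change of 0.04).

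No other gene of the KMT2 or SETD1 families was called, and differences between the genes were not tested. KMT2B, KMT2C and KMT2D, which encode the other MLL-type enzymes, had log2 fold changes of 0.02, 0.03 and -0.14. The 95% interval of KMT2D, -0.30 to 0.03, holds the value of KMT2A, and KMT2D was called lower after the correction for expression level (edgeR adjusted p = 0.0238). SETD1A and SETD1B, the catalytic subunits of the SET1 complexes, had -0.20 and -0.04, with edgeR adjusted p of 0.0652 and 0.811. SETD1A was called lower in 4 of 16 alternatives, among them the fit without WT replicate 2 (edgeR adjusted p = 0.00759). KMT2E, a family member without known methyltransferase activity, had a log2 fold change of 0.20 (edgeR adjusted p = 0.057) and was called higher without the library labelled WT replicate 1 (0.012). SMYD2 and SMYD3, whose SET domain is split by a zinc finger, had 0.16 and -0.03. For the transcripts of KMT2B, KMT2C and SMYD3 the 95% intervals of the log2 fold change ended at 0.19 or less on the upper side and at -0.23 or higher on the lower side.

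Of the 6 H3K9 methyltransferase genes 1 was called, and it was lower. SUV39H1, the enzyme of pericentric H3K9 methylation, held 17.2, 15.9 and 17.6 CPM in R98W replicates 1 to 3. In WT replicates 1 to 3 it held 21.3, 20.4 and 18.6 CPM. The groups were apart, with a log2 fold change of -0.25 (SE 0.09, adjusted p = 0.0291 by edgeR). Without R98W replicate 1 or 2 or the library labelled WT replicate 1 or WT replicate 2 the call ended (edgeR adjusted p of 0.0685, 0.135, 0.0782 and 0.0501), as it did after each correction for exon length, GC content or expression level (0.0566, 0.125 and 0.0782). Its paralog SUV39H2 had a log2 fold change of 0.01 with a 95% interval of -0.17 to 0.18. SETDB1, the enzyme recruited with TRIM28 to zinc finger repressors, and EHMT2 (G9a), which dimethylates H3K9 in euchromatin, lay just outside the threshold. Their log2 fold changes were -0.20 and -0.19, with edgeR adjusted p of 0.0511 and 0.0541, and neither overlapped between the groups. SETDB1 was called lower without the library labelled WT replicate 1 (edgeR adjusted p = 0.0494).

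Among the 6 H3K36 methyltransferase genes, SETMAR and NSD2 were called lower. SETMAR, in which a SET domain is fused to a mariner transposase (ENSG00000170364, hg38 chromosome 3, 4303304 to 4317567), held 5.46, 6.60 and 5.22 CPM in R98W replicates 1 to 3, against 7.63, 9.40 and 7.34 CPM in WT replicates 1 to 3. NSD2, a dimethyltransferase of H3K36 (ENSG00000109685, hg38 chromosome 4, 1871424 to 1982207), held 122, 120 and 112 CPM in R98W replicates 1 to 3, against 139, 146 and 135 CPM in WT replicates 1 to 3. For both genes every R98W library was below every WT library. SETMAR had a log2 fold change of -0.50 (SE 0.13, adjusted p = 0.00479 by edgeR), the largest fall among the writers, and NSD2 one of -0.24 (SE 0.07, adjusted p = 0.00673 by edgeR). SETD2, which adds the final methyl group to H3K36 and travels with RNA polymerase II, had 0.01 with a 95% interval of -0.13 to 0.15. NSD1, NSD3 and ASH1L were not called either, at -0.06, -0.11 and -0.06.

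No gene of H4K20 or H3K79 methylation was called in the main edgeR fit. KMT5A, which monomethylates H4K20, had a log2 fold change of 0.16 (edgeR adjusted p = 0.0823), and KMT5B and KMT5C, which add further methyl groups, had 0.11 and -0.01. Of these 3 genes, 1 was under an unadjusted p of 0.05, and DESeq2 and limma-voom called 0. KMT5A was called higher after the corrections for exon length and GC content. DOT1L, the H3K79 methyltransferase, had 0.20 (edgeR adjusted p = 0.0706). It was called higher without the library labelled WT replicate 1 (edgeR adjusted p = 0.0496) and by DESeq2, and not by limma-voom. The corrections for exon length, GC content and expression level also gave a higher call for DOT1L.

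The remaining SETD genes were called in 3 of 5 cases, against 34.8% of all tested genes and 43.3% of those that are protein-coding. SETD5, a chromatin protein whose own methyltransferase activity is disputed, was at 157, 161 and 154 CPM in R98W replicates 1 to 3 and 141, 127 and 126 CPM in WT replicates 1 to 3. SETD3, the histidine methyltransferase of actin, was at 108, 112 and 106 CPM in R98W replicates 1 to 3 and 91.0, 92.5 and 96.5 CPM in WT replicates 1 to 3. Both rose, without overlap, by log2 fold changes of 0.26 (SE 0.07, adjusted p = 0.00463 by edgeR) and 0.22 (SE 0.06, adjusted p = 0.0115 by edgeR). SETD4 held 6.92, 7.54 and 8.25 CPM in R98W replicates 1 to 3, against 9.72, 9.86 and 8.82 CPM in WT replicates 1 to 3. It was lower in every R98W library, with a log2 fold change of -0.32 (SE 0.11, adjusted p = 0.025 by edgeR). After the correction for expression level none of the 3 was called (adjusted p by edgeR of 0.104 for SETD5, 0.163 for SETD3 and 0.13 for SETD4). Leaving out R98W replicate 2 ended the calls of SETD3 (0.0645) and SETD4 (0.0692). The SETD4 call also ended without R98W replicate 1 (0.123) or WT replicate 2 (0.0575).

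PRMT3 showed the largest rise of any called member. It encodes a cytosolic arginine methyltransferase that methylates the ribosomal protein RPS2 (ENSG00000185238, hg38 chromosome 11, 20387530 to 20509294). R98W replicates 1 to 3 held 69.2, 67.3 and 73.2 CPM, against 53.5, 51.5 and 56.8 CPM in WT replicates 1 to 3. The lowest R98W library was thus above the highest WT library, and the log2 fold change was 0.37 (SE 0.07, adjusted p = 0.000259 by edgeR), or 1.30-fold. Of the other 6 tested arginine methyltransferase genes none was called in the main edgeR fit, while 2 were under an unadjusted p of 0.05. These were PRMT2, at a log2 fold change of 0.18 (edgeR adjusted p = 0.0656), and CARM1, the coactivator-associated methyltransferase of H3R17, at -0.18 (edgeR adjusted p = 0.0735). PRMT1 had 0.04 with a 95% interval of -0.12 to 0.19, and PRMT5 had 0.13 with one of -0.01 to 0.27. PRMT2 and PRMT5 were called higher after the corrections for exon length and GC content, and PRMT2 also by DESeq2. CARM1 was called lower with the filter of 50 counts, after the correction for expression level and without R98W replicate 3. PRMT1 shares exon sequence with ADM5 on its own strand.

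PRMT6, the enzyme of asymmetric H3R2 methylation, had 0 counts in all 6 libraries. PRMT8, known from brain, also had 0. A count of 0 allows up to 3 counts, which is 0.0261 to 0.0316 CPM per library and covers counting error only. Sequence upstream of PRMT3, the largest rise, and of PRMT6, a family member at 0, is printed to show what stands in front of each gene. It comes from the 250-base RefSeq window before each start on GRCh38.p14, plus strand, 5′ to 3′, with CG pairs in capitals. The PRMT3 stretch is the 64 bases of its window that no annotated exon covers, at chr11:20387466-20387529, and the PRMT6 stretch is the whole window, at chr1:107056424-107056673.
PRMT3: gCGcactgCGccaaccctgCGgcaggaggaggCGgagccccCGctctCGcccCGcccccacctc
PRMT6: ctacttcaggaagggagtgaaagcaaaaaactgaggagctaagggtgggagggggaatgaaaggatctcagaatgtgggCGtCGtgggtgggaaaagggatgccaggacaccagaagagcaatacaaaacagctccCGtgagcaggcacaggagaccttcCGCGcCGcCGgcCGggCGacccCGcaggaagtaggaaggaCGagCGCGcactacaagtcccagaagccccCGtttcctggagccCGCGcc
The whole PRMT3 window holds 43 CG pairs and that of PRMT6 holds 16, against a median of 11 over 35116 RefSeq windows of the same length. The PRMT3 window also holds the motif CACGTG, which reads the same on both strands and occurs in 6.34% of all windows. That window reaches 186 bases past the GENCODE start of PRMT3. The printed 64 bases hold 7 of its 43 CG pairs and do not hold the motif.

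Erasers were called in 9 of 17 tested cases (52.9%), 4 higher and 5 lower, against 34.8% of all tested genes and 43.3% of those that are protein-coding. In the KDM3 and KDM4 families called members lay on opposite sides. The only eraser family with no called gene by edgeR was that of the amine oxidases. KDM1A (LSD1), which removes methyl groups from H3K4 within the CoREST complex, held 105, 106 and 105 CPM in R98W replicates 1 to 3, against 106, 104 and 109 CPM in WT replicates 1 to 3. Its log2 fold change was -0.02 with a 95% interval of -0.15 to 0.11, and that of KDM1B was 0.05. Neither was under an unadjusted p of 0.05, and DESeq2 and limma-voom called 0.

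KDM4D fell more than any other member. The KDM4 enzymes remove methyl groups from H3K9, and KDM4A to KDM4C also from H3K36. KDM4D (ENSG00000186280, hg38 chromosome 11, 94973681 to 94999518) had 20, 34 and 21 counts in R98W replicates 1 to 3, against 93, 83 and 86 counts in WT replicates 1 to 3. In CPM these were 0.204, 0.351 and 0.199 in R98W and 0.934, 0.722 and 0.906 in WT. The gene was weak in every library, and the highest R98W value was under the lowest WT value. The log2 fold change was -1.76 (SE 0.33, adjusted p = 0.000317 by edgeR), with a 95% interval of -2.44 to -1.08. The neighbouring family members KDM4E and KDM4F had 0 counts in every library.

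The KDM4D start site lies 69 bases from that of CWC15, a splicing factor gene on the opposite strand. The 68 bases between the first exons of both genes are printed for that reason, from the RefSeq window of KDM4D on GRCh38.p14, plus strand, 5′ to 3′, at chr11:94973613-94973680, with CG pairs in capitals.
KDM4D: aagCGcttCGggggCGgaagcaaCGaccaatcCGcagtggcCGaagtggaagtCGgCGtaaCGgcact
The whole 250-base window of KDM4D, which also covers the first exon of CWC15, holds 22 CG pairs, more than 72% of RefSeq windows. It holds the motif CCAAT, searched on both strands as CCAAT and ATTGG, which occurs in 32% of all windows. CWC15 was also lower, with 18.2 ± 0.33 CPM over R98W libraries and 23.5 ± 3.1 CPM over WT libraries (SD, n = 3 each), a log2 fold change of -0.37 (SE 0.09, adjusted p = 0.00374 by edgeR). Start sites of a protein-coding gene on the opposite strand lay within 1000 bases for 9 members, a search added after the data were seen. Of the 3 called members with a tested gene there, KDM4D was the 1 whose neighbour was also called. CCDC77 beside KDM5A and CCNK beside SETD3 had log2 fold changes of -0.06 and 0.15 and were not called. Beside members that were not called, TPMT near KDM1B and CAB39L near SETDB2 were called lower, at -0.22 and -0.37 (edgeR adjusted p of 0.037 and 0.0309). KDM1B and SETDB2 themselves had 0.05 and 0.15.

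KDM4B, in contrast, rose. It held 25.8, 26.1 and 26.7 CPM in R98W replicates 1 to 3, against 25.3, 19.4 and 19.9 CPM in WT replicates 1 to 3. The library labelled WT replicate 1 lay just below the R98W libraries and apart from the other WT libraries. The log2 fold change was 0.28 (SE 0.09, adjusted p = 0.0231 by edgeR), and 0.41 without the library labelled WT replicate 1 (edgeR adjusted p = 0.00089). The call ended without R98W replicate 2 or 3 or WT replicate 2 or 3 (edgeR adjusted p of 0.0594, 0.0673, 0.111 and 0.144). KDM4A and KDM4C had 0.11 and 0.03 and were not called.

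KDM2B and KDM8 were called lower, while KDM2A was not called. KDM2B, a demethylase with a CXXC domain that brings a variant Polycomb complex to CpG islands (ENSG00000089094, hg38 chromosome 12, 121429097 to 121581015), held 17.2, 18.2 and 20.5 CPM in R98W replicates 1 to 3. WT replicates 1 to 3 held 25.4, 23.5 and 25.3 CPM. The groups were well apart, with a log2 fold change of -0.41 (SE 0.08, adjusted p = 0.000955 by edgeR). KDM8, a JmjC hydroxylase also called JMJD5, held 1.71, 1.83 and 1.98 CPM in R98W replicates 1 to 3, against 2.63, 2.72 and 2.18 CPM in WT replicates 1 to 3. Its log2 fold change was -0.45 (SE 0.17, adjusted p = 0.0418 by edgeR), from 168 to 313 counts per library. The KDM8 call ended without each of the 3 R98W libraries (edgeR adjusted p of 0.129, 0.0964 and 0.0558) and without the library labelled WT replicate 1 or WT replicate 2 (0.0814 and 0.117). It also ended with limma-voom (0.0517), with the replicate block (0.0562), without a filter (0.072) and after the corrections for exon length, GC content and expression level (0.0596, 0.0926 and 0.148), so that it held in 5 of 16 alternatives. KDM2A, the more abundant paralog of KDM2B, had 122, 124 and 120 CPM in R98W replicates 1 to 3, against 120, 103 and 104 CPM in WT replicates 1 to 3. Its log2 fold change was 0.16 (edgeR adjusted p = 0.0767), and without the library labelled WT replicate 1 it was called higher (edgeR adjusted p = 0.0128). The ratio of KDM2A to KDM2B in RPKM was 9.31, 8.95 and 7.68 in R98W libraries 1 to 3, against 6.19, 5.78 and 5.40 in WT libraries 1 to 3. KDM2B shares exon sequence with RNF34, and KDM8 with AC109449.1, both on the opposite strand.

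KDM3A and KDM3B, the H3K9 demethylases of 1 family, moved apart. KDM3A held 74.5, 71.2 and 67.4 CPM in R98W replicates 1 to 3, against 62.0, 60.9 and 58.5 CPM in WT replicates 1 to 3. For KDM3B the values were 151, 153 and 142 CPM in R98W replicates 1 to 3, against 168, 170 and 163 CPM in WT replicates 1 to 3. Neither gene overlapped between the groups. KDM3A rose by a log2 fold change of 0.23 (SE 0.07, adjusted p = 0.01 by edgeR), and KDM3B had -0.17 (SE 0.06, adjusted p = 0.0487 by edgeR). The KDM3A call ended without R98W replicate 1 (edgeR adjusted p = 0.0693) or WT replicate 3 (0.0694), and after the correction for expression level (0.0506). KDM3B stood at the threshold, and its call ended without any 1 of the 6 libraries, at edgeR adjusted p from 0.0526 without the library labelled WT replicate 1 to 0.167 without R98W replicate 3. DESeq2 size factors (0.0642), no filter (0.0861), the replicate block (0.0868) and the corrections for exon length (0.0715) and GC content (0.088) also ended the KDM3B call, which held in 5 of 16 alternatives.

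KDM5A was the called member of the H3K4 demethylases. KDM5A, first known as a partner of the retinoblastoma protein (ENSG00000073614, hg38 chromosome 12, 280129 to 389454), held 103, 100 and 92.7 CPM in R98W replicates 1 to 3. In WT replicates 1 to 3 it held 122, 123 and 123 CPM. The WT libraries were nearly equal and all above the R98W libraries, with a log2 fold change of -0.31 (SE 0.07, adjusted p = 0.00101 by edgeR). KDM5B had 0.12 and the X-linked KDM5C had -0.07, neither called. In RPKM, KDM5B over KDM5A was 0.475, 0.5002 and 0.502 in R98W libraries 1 to 3, against 0.373, 0.373 and 0.350 in WT libraries 1 to 3. KDM5A shares exon sequence with CCDC77 on the opposite strand.

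All 3 members with a KDM6 or KDM7 symbol, whose enzymes act on H3K27, had higher values in R98W, and 2 of them were called. PHF8, a KDM7 family gene that the symbol rule did not take in, was called lower. The PHF8 call ended without R98W replicate 1, 2 or 3 or WT replicate 2 or 3 (edgeR adjusted p of 0.0849, 0.0704, 0.104, 0.0751 and 0.088). KDM6B (JMJD3), an inducible enzyme of the inflammatory response, held 32.8, 35.9 and 34.3 CPM in R98W replicates 1 to 3, against 32.5, 23.4 and 27.5 CPM in WT replicates 1 to 3. KDM6A (UTX), an X-linked subunit of the KMT2C and KMT2D complexes, held 38.3, 42.6 and 37.5 CPM in R98W replicates 1 to 3, against 34.7, 34.0 and 32.4 CPM in WT replicates 1 to 3. The groups did not overlap, although KDM6B in the library labelled WT replicate 1 came close to the lowest R98W library. KDM6B rose by a log2 fold change of 0.31 (SE 0.10, adjusted p = 0.0176 by edgeR) and KDM6A by 0.23 (SE 0.07, adjusted p = 0.0217 by edgeR). Without R98W replicate 2 or WT replicate 3 neither was called (edgeR adjusted p of 0.0767 and 0.0752 for KDM6B, 0.144 and 0.115 for KDM6A), and without WT replicate 2 KDM6B was not (0.108). KDM7A, which acts on H3K9 and H3K27, had 0.27 (edgeR adjusted p = 0.0588), and was called higher without the library labelled WT replicate 1 (0.0406). The median of KDM6A, KDM6B and KDM7A stayed positive under every scaling and correction tried.

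**Figure D3:**
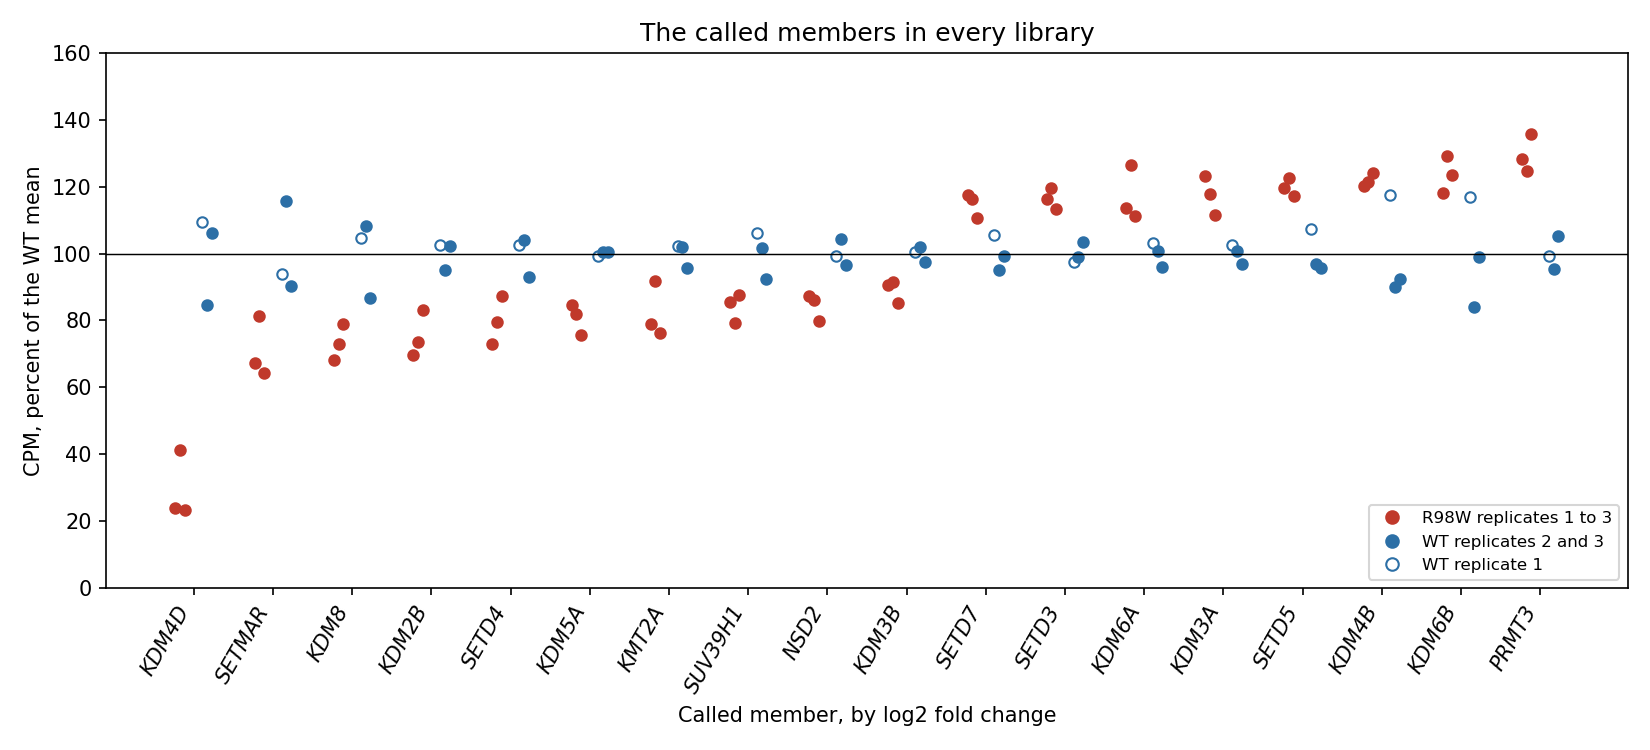
The vertical axis gives the CPM of each called member in each library as a percent of the WT mean of that gene, with R98W at the left (red) and WT at the right (blue, the library labelled WT replicate 1 open), and members run from the largest fall to the largest rise. In all 18 members the groups do not overlap, but these members were called from the same libraries, so this adds no support to the calls. The library labelled WT replicate 1 was the WT library nearest the R98W mean in 7 of them, among them KDM4B and KDM6B. Neither share was computed over all called genes.

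None of the 11 tested PRDM genes was called in the main edgeR fit, by DESeq2 or by limma-voom, and 1 was under an unadjusted p of 0.05. That gene was PRDM4, with 31.5, 34.3 and 30.5 CPM in R98W replicates 1 to 3, against 39.6, 34.6 and 36.3 CPM in WT replicates 1 to 3. Its log2 fold change was -0.20 (edgeR adjusted p = 0.0528), and it was called lower in 5 of 16 alternatives. PRDM1 (BLIMP1), the repressor of plasma cell fate, had -0.12, PRDM2, an H3K9 methyltransferase also called RIZ, had -0.02, and PRDM10 had 0.08. The log2 fold changes of the 11 had a median of -0.12 and were negative in 10 genes. After the correction for expression level the median was -0.015, with 8 genes negative. Over all tested genes the median was -0.13 under 1 CPM and -0.09 between 1 and 16 CPM. PRDM12 and PRDM16 had 0.412 CPM or less in every library, where the 95% intervals ran from -1.68 to 0.39 and from -1.35 to 0.49. Another 4 PRDM genes were not tested. PRDM14 had 0 counts, PRDM9, known for placing H3K4 methylation at meiotic recombination sites, and PRDM7 had at most 2 and 6 counts in any library, and PRDM8 had 1, 4 and 7 counts in R98W replicates 1 to 3, against 6, 16 and 12 counts in WT replicates 1 to 3.

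Set against each other as classes, writers and erasers had nearly the same median change. Writers had 4 members called higher and 5 lower of 38 tested, with a median log2 fold change of 0.01, and erasers had 4 and 5 of 17, with a median of 0.05. Called members were thus 23.7% of the tested writers and 52.9% of the tested erasers, against 34.8% of all tested genes and 43.3% of tested protein-coding genes. The counts moved with single libraries: without WT replicate 3 no eraser was called higher by edgeR, without R98W replicate 2 it was 1, and without WT replicate 2 it was 2. In 5 of the fits that left out 1 library, 3 erasers were called lower, and the exception was WT replicate 3 with 4. Writers called higher numbered 2 without R98W replicate 2, and writers called lower 3 without R98W replicate 1 or 2. The median of the writers was -0.01 after the correction for expression level.

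Summed levels in RPKM gave the balance of transcripts within each library. All writers together summed to 287, 297 and 295 RPKM in R98W replicates 1 to 3, against 288, 279 and 277 RPKM in WT replicates 1 to 3. Erasers summed to 110, 112 and 108 RPKM in R98W replicates 1 to 3, against 113, 110 and 109 RPKM in WT replicates 1 to 3. Writers over erasers came to 2.62, 2.65 and 2.74 in R98W libraries 1 to 3, against 2.55, 2.54 and 2.54 in WT libraries 1 to 3. The groups did not overlap, and their means differed by 4.91% of the WT mean. Without SETD3, SETD5 and SETD7 the ratio was 2.11, 2.14 and 2.24 in R98W, against 2.11, 2.12 and 2.11 in WT, and the groups overlapped. Those 3 genes were chosen from the writers called higher. The groups stayed apart for lysine writers over erasers, at 1.76, 1.77 and 1.75 in R98W, against 1.73, 1.67 and 1.70 in WT. They also stayed apart without PRMT1, at 2.28, 2.30 and 2.33 in R98W, against 2.20, 2.18 and 2.19 in WT. These sums add genes of different function and carry no test, and the reduced sums were chosen after the data were seen.

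By mark, the ratio of H3K4 writers to KDM5 genes was higher in R98W, and that of H3K36 writers to KDM2 and KDM8 genes was lower. KDM1A and KDM1B, with means over all libraries of 19.5 and 5.33 RPKM, were not counted in the H3K4 ratio. The KDM4 genes were not counted in the H3K9 or H3K36 ratio. Ratios that include these genes were not computed. Writers linked to H3K4 over KDM5 genes came to 2.52, 2.65 and 2.56 in R98W libraries 1 to 3, against 2.40, 2.104 and 2.26 in WT libraries 1 to 3. Without SETD7 the ratio was 1.77, 1.91 and 1.84 in R98W, against 1.78, 1.56 and 1.66 in WT, and the groups overlapped. For KMT2A to KMT2D with SETD1A and SETD1B alone, it was 0.991, 1.07 and 1.05 in R98W, against 1.12, 0.915 and 0.993 in WT, again with overlap. H3K36 writers over KDM2A, KDM2B and KDM8 came to 3.12, 3.05 and 2.72 in R98W, against 3.15, 3.54 and 3.35 in WT, with the library labelled WT replicate 1 close to the highest R98W library. H3K9 writers over KDM3 genes were at 0.961, 0.968 and 1.06 in R98W, against 1.02, 0.996 and 1.03 in WT, and overlapped. Both terms of that ratio were lower in R98W: the writers summed to 23.6, 23.7 and 24.2 RPKM in R98W, against 26.3, 25.8 and 25.5 RPKM in WT. KDM6A, KDM6B and KDM7A, the H3K27 demethylases among the members, summed to 11.3, 12.3 and 11.2 RPKM in R98W, against 10.6, 8.93 and 9.54 RPKM in WT.

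**Figure D4:**
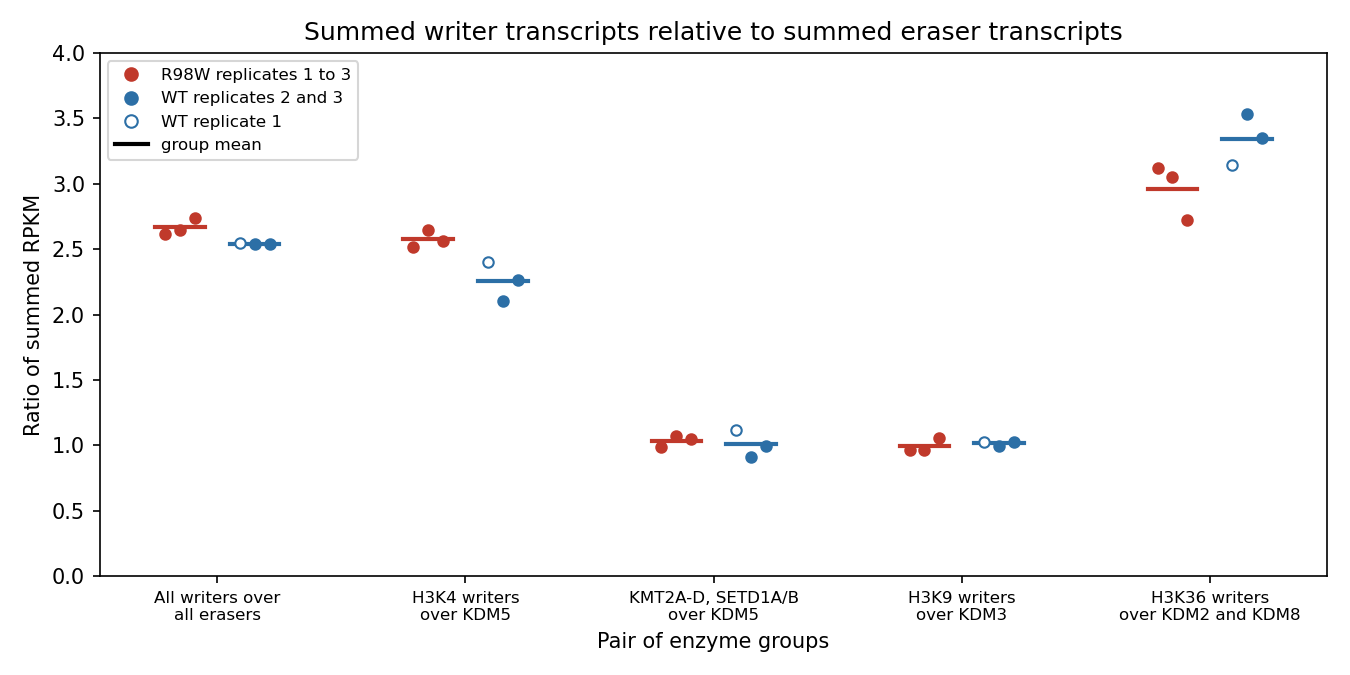
The vertical axis gives the summed RPKM of a group of writers divided by that of a group of erasers, as 1 point per library with R98W at the left (red) and WT at the right (blue, the library labelled WT replicate 1 open), and bars mark group means. The groups are apart for all writers over all erasers, for H3K4 writers over KDM5 and narrowly for H3K36 writers over KDM2 and KDM8. They overlap for H3K9 writers over KDM3 and for the KMT2 and SETD1 enzymes over KDM5.

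Partner and cofactor genes of these enzymes were called in both directions. Over 9 lists with 94 genes, 93 were tested, and 20 were called higher and 15 lower. Together these were 37.6%, against 34.8% of all tested genes and 43.3% of those that are protein-coding. The median log2 fold change was 0.07. The number called higher was 13 without R98W replicate 1 and 13 without WT replicate 3. Of 15 subunits of the MLL and SET1 (COMPASS) complexes, 3 were lower and 1 higher. MEN1 (menin), the subunit that tethers KMT2A, averaged 24.7 ± 0.67 CPM over R98W libraries and 36.8 ± 1.5 CPM over WT libraries (SD, n = 3 each), a log2 fold change of -0.58 (SE 0.07, adjusted p = 6.63e-06 by edgeR). HCFC2, a relative of the host cell factor HCFC1, had -0.91 and CXXC1, the CpG-binding subunit of SET1 complexes, had -0.38. The higher subunit was TAF9, at 0.20, which shares exon sequence with AK6, and its call ended without R98W replicate 1 or 2 or the library labelled WT replicate 1 or WT replicate 3 (edgeR adjusted p of 0.071, 0.113, 0.114 and 0.116). The shared core subunits WDR5, ASH2L, RBBP5 and DPY30 were not called.

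Genes around H3K9 methylation and the KDM1A complex went both ways. Of 12 readers and partners of H3K9 methylation 3 were higher and 3 lower, and 4 were higher and 3 lower without the library labelled WT replicate 1. UHRF1, which reads H3K9 methylation and recruits DNMT1, stood at -0.68 on the log2 scale, and CBX1 (HP1 beta) at -0.34. Of 11 corepressor partners of KDM1A 3 were higher and 1 lower, and 2 were higher and 2 lower without the library labelled WT replicate 1. RCOR1, which encodes the CoREST scaffold itself, held 102 ± 4.4 CPM in R98W and 77.0 ± 5.5 CPM in WT (SD, n = 3 each), a log2 fold change of 0.40 (SE 0.07, adjusted p = 0.000175 by edgeR), and HMG20B rose by 0.46. HMG20B shares exon sequence with MFSD12 on the opposite strand. None of the 6 core genes of PRC2, the H3K27 methyltransferase complex that includes EZH2, was called in the main edgeR fit, by DESeq2 or by limma-voom. None was under an unadjusted p of 0.05, and 1 was called lower after the correction for expression level.

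Partners of arginine methylation and of DOT1L, other JmjC genes and cofactor enzymes held the rest of the calls. Of 9 PRMT partners 2 were higher and 0 lower: BTG2, which binds PRMT1, rose by 0.60, and RIOK1, which brings substrates to PRMT5, by 0.31. Of 7 DOT1L partners 3 were higher and 2 lower, and 4 were higher and 1 lower without the library labelled WT replicate 1. They were led by MLLT1 (ENL) at -0.36 and AFF4 of the super elongation complex at 0.33. AFF4 was not called after the correction for expression level. Of 11 tested JmjC genes 1 was higher and 3 lower, with JMJD1C, a relative of KDM3A, at 0.50 and HIF1AN, an asparagine hydroxylase, at -0.52. JMJD1C overlaps JMJD1C-AS1, and HIF1AN overlaps NDUFB8, on the opposite strand. Of 12 genes of the S-adenosylmethionine cycle 5 were higher and 1 lower, with ADK, the adenosine kinase, at 0.26. Without R98W replicate 1 or WT replicate 3 this became 3 higher and 0 lower, and the lower call held in 1 of the 6 fits that left out a library, the one without the library labelled WT replicate 1. Of 10 genes linked to 2-oxoglutarate supply 2 were higher and 2 lower, and 1 was higher and 2 lower without the library labelled WT replicate 1 or WT replicate 3 or any 1 R98W library. IDH1, the cytosolic enzyme, held 713 ± 22 CPM in R98W and 525 ± 26 CPM in WT (SD, n = 3 each), a log2 fold change of 0.44, whereas IDH3B of the mitochondrial enzyme had -0.58. IDH1 overlaps IDH1-AS1 on the opposite strand.

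Upstream sequence did not enter the choice of members, and it varied among them. RefSeq windows were found for 66 of the 74 members, and they held a median of 23 CG pairs in 250 bases, against 11 over all 35116 windows, and ranged from 1 to 50. The 60 windows of tested members had a median of 24, against 20 over the 11265 windows found for tested protein-coding genes, and the 6 of members without enough counts had a median of 13, with a range of 1 to 20. The motif TATAAA, searched on both strands, occurred in 1 member window (1.52%), against 10.7% of all windows. CACGTG occurred in 9 member windows (13.6%), against 6.34% of all. Some windows lie far from the GENCODE start of their gene. That of PRDM11, the 1 with TATAAA, lies 50833 bases away, and that of KDM4C, among the 9 with CACGTG, lies 37110 bases away. Motif shares over tested protein-coding genes alone were not computed.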

How the data were processed

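The authors deposited raw read counts per gene for 6 libraries of A549 cells, as whole numbers without normalisation. CASAVA 1.8, HISAT2 2.1.0, HTSeq 0.11.3 and hg38 are named, without roles, per the submitters' processing notes. The sources used here do not give the annotation, strand setting or read filters of the read counting, so reads of genes that overlap on opposite strands cannot be told apart. All 58721 identifiers matched GENCODE release 29, which gave symbols, positions on hg38, exon lengths and the GC content of transcripts.

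Counts were tested with edgeR 4.0.16 (R 4.3.3): filterByExpr (minimum count 10, minimum total 15; 20713 genes kept), TMM scaling, glmQLFit and glmQLFTest on the 6 libraries with no covariate. Adjustment was by Benjamini-Hochberg over all tested genes, with a threshold of 0.05. Fold changes give R98W over WT on the log2 scale, the standard error (SE) comes from the test statistic, and intervals are 95%. CPM use TMM-scaled totals, and RPKM divide them by the union of exons.

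Alternatives were scaling by DESeq2 size factors or upper quartile, no filter, at least 50 counts in 3 libraries, DESeq2 1.42.0, limma-voom (limma 3.58.1), the replicate number as a block, loess corrections per library for exon length, GC content or expression level, and each library left out. The members, roles and partner lists were chosen with earlier results of these data known. Values in every library are given for KAT8, for called members with an absolute log2 fold change of at least 0.5, and for the 10 called higher and 10 called lower members with the smallest p, which covers all 18. Of each partner list, the 2 called genes with the smallest p are named, except 1 gene that is not reported here. The other genes given with values in every library, further partner genes, extra ratios, promoter counts and start site neighbours were chosen after the values were seen. On simulated data for R98W against WT (20709 genes, 50 changed at each fold), calls recovered 18% at a fold of 1.25, 94% at 1.5 and 100% at 2 and 4, with 12 false calls. The simulation changed far fewer genes than were called in the data and gave every gene the same dispersion. Its recovery therefore need not hold for these data.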

Additional observations from a re-analysis of the deposited data

How the results depend on the processing

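Of 288 values of the 18 called members under the 16 alternatives, 235 stayed past the threshold in the same direction, 53 did not, and 0 changed sign. The calls of KDM2B, KDM4D, KDM5A, NSD2, SETMAR, KMT2A and PRMT3 held under all 16. Counts of calls and class medians moved as follows, and the cause was not tested. The correction for exon length gave 16 members higher, 10 writers higher and 3 erasers lower, with medians of 0.025 for members, 0.045 for writers and 0.108 for partner genes. The correction for GC content gave 14 members higher, 9 writers higher and 3 erasers lower, with medians of 0.023 for members and 0.052 for writers. The correction for expression level gave 8 writers lower, 1 PRDM gene lower and 12 partner genes higher, with medians of -0.015 for PRDM genes and 0.022 for partner genes. Upper-quartile scaling gave 8 writers lower and 1 PRDM gene lower, and the filter of 50 counts gave 9 and 1. Without a filter 3 erasers were called lower. With each library left out in turn, the ranges were 3 to 12 members higher and 6 to 11 lower, 2 to 6 writers higher and 3 to 7 lower, 0 to 6 erasers higher and 3 to 4 lower, 0 to 1 PRDM genes lower, 13 to 20 partner genes higher and 12 to 15 lower, and medians of -0.044 to 0.0035 for members, 0.00043 to 0.034 for writers, 0.0385 to 0.0882 for erasers, -0.173 to -0.0585 for PRDM genes and 0.049 to 0.0924 for partner genes. Deviations of same-numbered libraries from their group means correlated at 0.00564, -0.0392 and -0.0369. These values show no strong shared effect, and they cannot show whether the cultures were paired. With the replicate number as a block 8 members were higher and 8 lower, and 3 erasers were lower. KAT8 itself was past the threshold without a filter (edgeR adjusted p = 6.72e-16) and with the block (edgeR adjusted p = 0.000788), or in 2 of the 16 alternatives. Depth limits the members under 1 CPM, KDM4D among them, whose values rest on 20 to 93 counts per library.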
